A study of Mus musculus with 2 samples.

Results

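The plasminogen activators, their receptor and a group of related serpins were examined in tag libraries of 2 mouse cell lines. The 6 genes were taken by symbol: *Plat* and *Plau*, which encode the tissue-type and the urokinase-type plasminogen activator, *Plaur*, which encodes the urokinase receptor, and the serpin genes *Serpine2*, *Serpinb2* and *Serpinf1*. They are 6 of the 14450 genes that had at least 1 sense tag belonging to 1 gene only, and all 6 had such a tag in at least 1 library. GC-1spg was made with the plasmid pSV3-neo from type B spermatogonia of a mouse aged 10 days, and is labelled as a stage before the primary spermatocyte. GC-2spd (ts) was made with the SV40 large T antigen from spermatocytes of a mouse aged 6 weeks, and its label calls it premeiotic. Both lines are transformed and were grown in DMEM with serum and bicarbonate, and no treatment was given. Digital gene expression (DGE) profiling, which counts one short tag next to a CATG site near the 3′ end of each polyadenylated transcript, was run on 1 library per line. No difference below therefore has a replicate check, every test compares the 2 libraries and not the cell lines, and fewer cells of a type and less RNA per cell cannot be told apart.

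Plasminogen is an inactive protease precursor that the activators cut to plasmin, a broad protease that dissolves fibrin and cleaves matrix proteins. Urokinase works mostly at the cell surface, held there by its receptor, while the tissue-type activator works mostly on fibrin. Serpins trap such proteases in a covalent complex, which clearance receptors then take up. In the testis, Sertoli cells secrete both activators, and their action has been linked to the movement of early spermatocytes through the seminiferous epithelium.

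The libraries held 5072149 clean tags for GC-1spg and 4726808 for GC-2spd (ts), so that 1 copy is worth 0.197 TPM in the former and 0.212 TPM in the latter, where TPM is the count scaled to a library of 1000000 clean tags. Tags with a single copy had been removed before deposit, and the lowest copy number listed was 2. Both lines are labelled as male germ cells, but of 14 germ cell markers, 13 had no listed tag in either library, *Ddx4*, *Dazl*, *Stra8* and *Sycp3* among them, and *Spo11* had 2 tags in GC-1spg. Of 8 fibroblast markers, 6 were listed in each library, with summed levels of 2543 and 1359 TPM, where *Col1a1* and *Dcn* were called lower and *Col3a1* and *Vim* higher in GC-2spd (ts). The 7 Sertoli cell markers summed to 139 TPM in GC-1spg against 38.9 TPM in GC-2spd (ts), with *Fshr* and *Cldn11* at 0 in both, and *Wt1*, at 122 and 0 TPM, gave most of that sum in GC-1spg, while *Gata4* was called higher in GC-2spd (ts). The 5 peritubular myoid cell markers summed to 13.0 and 122 TPM, most of it from *Acta2*, and the 4 macrophage markers were not listed. The part of these cell type differences in the results below was not tested.

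The tags that carried the counts are given because each gene is measured by the copies of these sequences alone. Each is 21 bases long, with the CATG site in capitals, and positions are on GRCm38.
*Plat*: CATGcactccccatccctcca
*Plau*: CATGtgatgctccacgtgaat
*Plaur*, site 2 from the 3′ end: CATGaaccagaagagaattgg
*Plaur*, site 1 from the 3′ end: CATGtagccctagctgccctg
*Serpine2*: CATGtgttcactaaaataaag
*Serpinb2*: CATGcttacttacacactgct
*Serpinf1*: CATGaagctacagtcgttgtt

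*Plat* gave most of the activator tags in both libraries and was lower in GC-2spd (ts). The library of GC-1spg held 357 *Plat* tags, or 70.4 TPM (exact 95% Poisson interval 63.3 to 78.1), and that of GC-2spd (ts) held 67, or 14.2 TPM (11.0 to 18.0). The intervals do not overlap, and the level was 4.97 times lower in GC-2spd (ts). The log2 ratio of GC-2spd (ts) over GC-1spg was -2.31, between -2.71 and -1.93 in its exact 95% interval, with a false discovery rate (FDR) of 2.4e-43 by the Audic-Claverie test. A gene was called when the FDR was at most 0.001 and the absolute log2 ratio at least 1, and *Plat* was called lower. By level it ranked 1750th of the 13066 genes listed in GC-1spg and 6220th of the 12757 listed in GC-2spd (ts). When edgeR's exact test was given an assumed biological coefficient of variation (BCV) of 0.4 between cultures, the gene was no longer called (FDR 0.14).

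Nearly all *Plat* copies came from 1 of its CATG sites. The gene lies on the plus strand at chr8:22757727-22782844, and the site nearest the 3′ end is in the 3′ UTR within exon 14, at chr8:22782608-22782628. This tag had 352 copies in GC-1spg against 65 in GC-2spd (ts). Another 3 tags had 2 or 3 copies each, in 1 library only. The transcript Plat-201 has 15 CATG sites, and the other 12 gave no copy.

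*Plau* was close to the detection limit in both libraries. It had 7 tags in GC-1spg, or 1.38 TPM (exact 95% interval 0.555 to 2.84), against 2 in GC-2spd (ts), or 0.423 TPM (0.0512 to 1.53). The log2 ratio was -1.71 with an interval from -5.01 to 0.69, and the gene was not called (Audic-Claverie FDR 0.22). From 7 tags in GC-1spg no lower count in GC-2spd (ts), 0 included, could have been called, so a fall was not detectable at this depth. The copies came from the last CATG site of the transcript, at chr14:20843095-20843115 in the 3′ UTR within exon 11, with 5 copies in GC-1spg against 2 in GC-2spd (ts), and from the third site from the end, with 2 copies in GC-1spg. A tag count does not grow with transcript length, so levels of genes were set beside each other. They hold only copies whose tag belongs to 1 gene, and a gene can lose most of its copies this way, as *Eno1* does below. With tags shared out among the genes they match, *Plat* had 360 tags in GC-1spg against 67 in GC-2spd (ts), and *Plau* still 7 against 2. Whether tags of different sequence are recovered equally was not tested. *Plat* made up 98.1% of the activator tags in GC-1spg (357 of 364, exact 95% binomial interval 96.1 to 99.2) and 97.1% in GC-2spd (ts) (67 of 69, 89.9 to 99.6).

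*Plaur* was the second most abundant gene of the group in GC-1spg and the most abundant in GC-2spd (ts). It had 333 tags in GC-1spg, or 65.7 TPM (58.8 to 73.1), against 200 in GC-2spd (ts), or 42.3 TPM (36.7 to 48.6). The intervals do not overlap, and the log2 ratio was -0.63 (-0.89 to -0.38). The Audic-Claverie FDR was 2.9e-06, but the ratio stayed within the fold threshold, so that *Plaur* was not called. In edgeR's exact test its FDR was 0.029 with an assumed BCV of 0.1 and 0.35 with 0.2, so it no longer passed the FDR threshold either. The ratio of *Plat* lay 1.68 further down than that of *Plaur*, a difference of -1.68 on the log2 scale (exact conditional interval -2.15 to -1.21) that does not depend on the scaling of the libraries.

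*Plaur* tags came from both of its last CATG sites, which lie in the 3′ UTR within exon 7. The gene is on the plus strand at chr7:24462484-24475968. The second site from the end, at chr7:24475584-24475604, had 206 copies in GC-1spg against 114 in GC-2spd (ts), with a log2 ratio of -0.75 (-1.09 to -0.41). The last site, at chr7:24475856-24475876, had 115 and 83 copies, with a log2 ratio of -0.37 (-0.79 to 0.05). The second site thus gave 64.2% of the copies of this pair in GC-1spg (exact 95% interval 58.7 to 69.4) and 57.9% in GC-2spd (ts) (50.6 to 64.9). The ratios of both tags differed by -0.38 on the log2 scale, with an interval from -0.93 to 0.17 that includes 0. Both sites are present in Plaur-201 and Plaur-204, so the tags of neither can be assigned to 1 transcript. The second site is also present in Plaur-203, a transcript annotated for nonsense-mediated decay that lacks the last site. A further 3 sites gave 3 to 6 copies per library where listed, among them 1 that is found only in the retained-intron transcript Plaur-204, with 3 copies in GC-1spg.

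**Figure D1:**
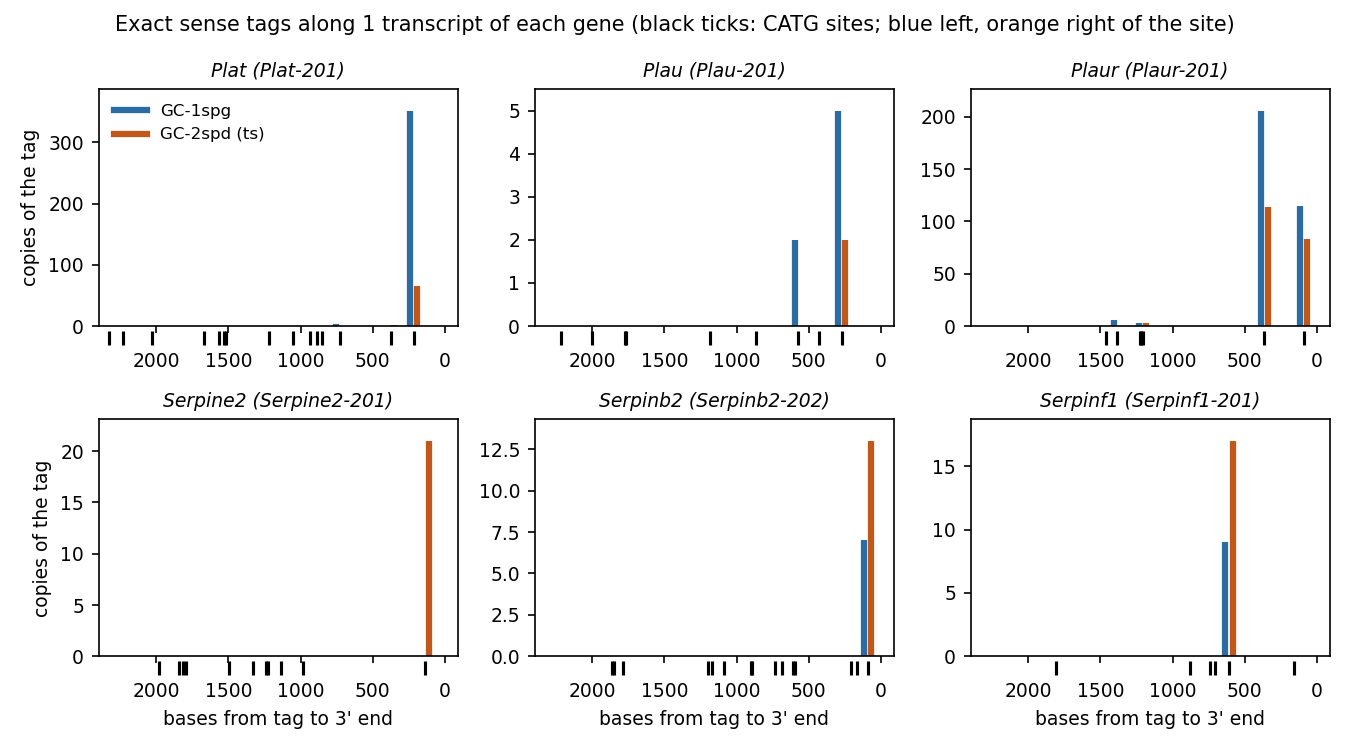
Copies of each exact sense tag (y axis) by its distance in bases to the 3′ end of 1 protein-coding transcript per gene (x axis), in GC-1spg (blue) and GC-2spd (ts) (orange), with black ticks at every CATG site followed by 17 bases. *Plat* rests on its last site with 352 and 65 copies, and *Plaur* is divided between its last and second last sites.

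*Serpine2*, which encodes protease nexin-1, a secreted inhibitor of thrombin, urokinase and plasmin, was listed only in GC-2spd (ts). It had 0 tags in GC-1spg against 21 in GC-2spd (ts), or 4.44 TPM (2.75 to 6.79). Since a tag of 1 copy would not be listed, GC-1spg was set at the one-sided 95% Poisson limit for 1 unlisted copy, 0.935 TPM. The measured level of 4.44 TPM in GC-2spd (ts) was 4.75 times that limit, a lower bound that leaves out the counting error of the 21 tags. *Serpine2* was called higher, with an Audic-Claverie FDR of 2.1e-06, and this call was lost with an assumed BCV of 0.4 (FDR 0.020). A further sense tag that also matches other genes, with 7 copies in GC-1spg and 4 in the other library, was not counted, and the bound covers the tags of *Serpine2* alone. All copies came from 1 tag in the 3′ UTR within exon 9, at chr1:79794333-79794353 on the minus strand.

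The transcript model decides which site of *Serpine2* counts as the last. The GENCODE transcript used for matching ends at base 79794197 with a CATG that no tag can follow, which makes the listed tag the second site. The RefSeq model of the same build ends 120 bases earlier, at 79794317, and there the listed tag is at the last site. With only the last site of each GENCODE transcript counted, *Serpine2* had no tag in either library and could not be tested.

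*Serpinb2* encodes plasminogen activator inhibitor 2, a mostly intracellular serpin that inhibits urokinase. It had 7 tags in GC-1spg, or 1.38 TPM (0.555 to 2.84), against 13 in GC-2spd (ts), or 2.75 TPM (1.46 to 4.70). The intervals overlap, and the log2 ratio of 0.99 (-0.44 to 2.56) includes 0 in its interval. It was not called (Audic-Claverie FDR 0.30), and with 7 tags in GC-1spg at least 28 in GC-2spd (ts) would have been needed for a call. All copies came from the last CATG site, at chr1:107525482-107525502 on the plus strand, in the 3′ UTR within exon 8.

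*Serpinf1* encodes pigment epithelium-derived factor (PEDF), a secreted serpin that does not inhibit proteases and acts on blood vessels and neurons. The libraries held 9 and 17 tags, or 1.77 TPM (0.811 to 3.37) in GC-1spg and 3.60 TPM (2.10 to 5.76) in GC-2spd (ts). The intervals overlap, the log2 ratio was 1.02 (-0.23 to 2.37), and the gene was not called (Audic-Claverie FDR 0.20). A call would have needed at least 31 tags in GC-2spd (ts). All copies came from a coding tag that spans the junction of exons 7 and 8, between 75410378 and 75410838 on the minus strand of chromosome 11. This is the second site from the end in the GENCODE transcript, whose last site, in the 3′ UTR at chr11:75409930-75409950, gave 0 copies in both libraries. The RefSeq model ends 260 bases earlier, at 75410029, and does not reach that last site.

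**Figure D2:**
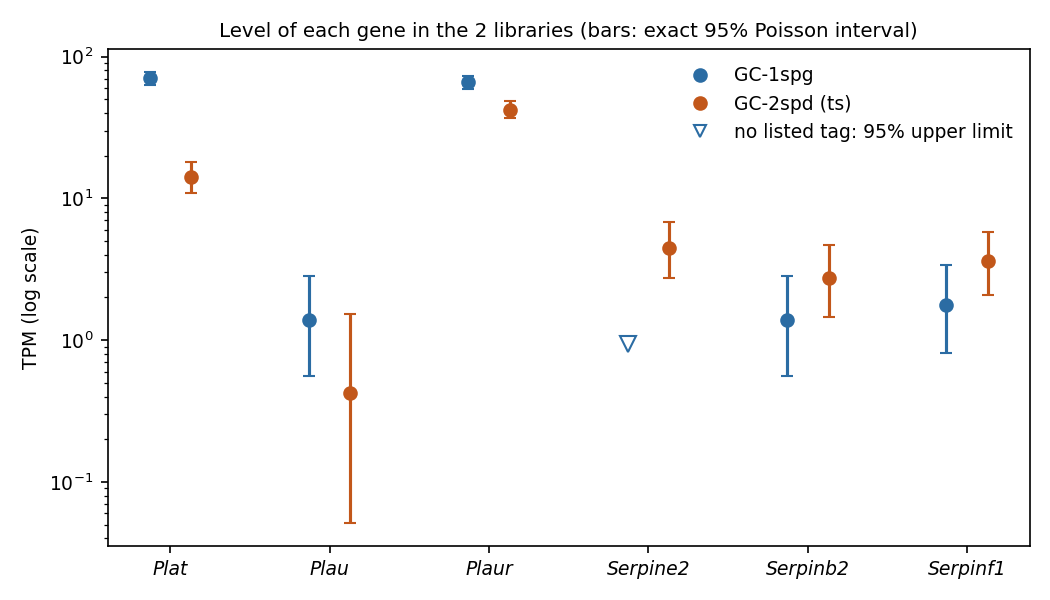
Level in TPM on a log axis (y axis) of the 6 genes (x axis) in GC-1spg (blue) and GC-2spd (ts) (orange), 1 library each, with exact 95% Poisson intervals as bars and the 95% upper limit as an open triangle where no tag was listed. The intervals of *Plat* and of *Plaur* do not overlap between the libraries, while those of *Plau*, *Serpinb2* and *Serpinf1* do.

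In all, 1 of the 6 genes was called lower and 1 higher in GC-2spd (ts). Over all 14450 genes tested, 19.5% were called, 7.84% lower and 11.7% higher, and under TMM scaling, edgeR's trimmed mean of M values, these shares were 9.99% and 8.94%. With 0.5 tags added to both counts, the median log2 ratio was 0.16 over the 6 genes and 0.13 over all genes. TMM lowered every log2 ratio of genes listed in both libraries by 0.17, which turned none of the directions of the 6 genes.

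The order of the levels differed between the libraries. In GC-1spg, *Plat* and *Plaur* had overlapping intervals at the top, and *Serpinf1*, *Plau* and *Serpinb2* had overlapping intervals between 0.555 and 3.37 TPM. In GC-2spd (ts), *Plaur* was above *Plat*, and *Plat* was above *Serpine2*, with no overlap at either step. *Serpine2*, *Serpinf1* and *Serpinb2* overlapped there, and *Plau* was lowest, with an interval that overlapped that of *Serpinb2* only.

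The 6 genes together had 713 tags in GC-1spg, or 141 TPM (exact 95% interval 130 to 151), against 320 in GC-2spd (ts), or 67.7 TPM (60.5 to 75.5). The activators made up 51.1% of these tags in GC-1spg (47.3 to 54.8) and 21.6% in GC-2spd (ts) (17.2 to 26.5). The receptor made up 46.7% (43.0 to 50.4) and 62.5% (56.9 to 67.8), and the serpins 2.24% (1.29 to 3.62) and 15.9% (12.1 to 20.4). These are shares of a total that fell with *Plat*, from 357 to 67 tags. The larger receptor share is therefore no rise of *Plaur*, which fell from 333 to 200 tags. The serpin shares rest on 16 and 51 tags, and 21 of the latter came from *Serpine2*. Relative to *Plat*, the log2 ratio of *Serpinb2* was 3.30 higher (exact conditional interval 1.80 to 4.92) and that of *Serpinf1* 3.32 higher (2.01 to 4.73), and these differences do not depend on scaling. Both differences include the fall of *Plat* itself, whose log2 ratio was -2.31. The ratios of *Serpinb2* (0.99) and *Serpinf1* (1.02) had intervals that include 0, and neither gene was called. The ratio of *Plau* lay 0.60 above that of *Plat*, with an interval from -2.73 to 3.04.

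**Figure D3:**
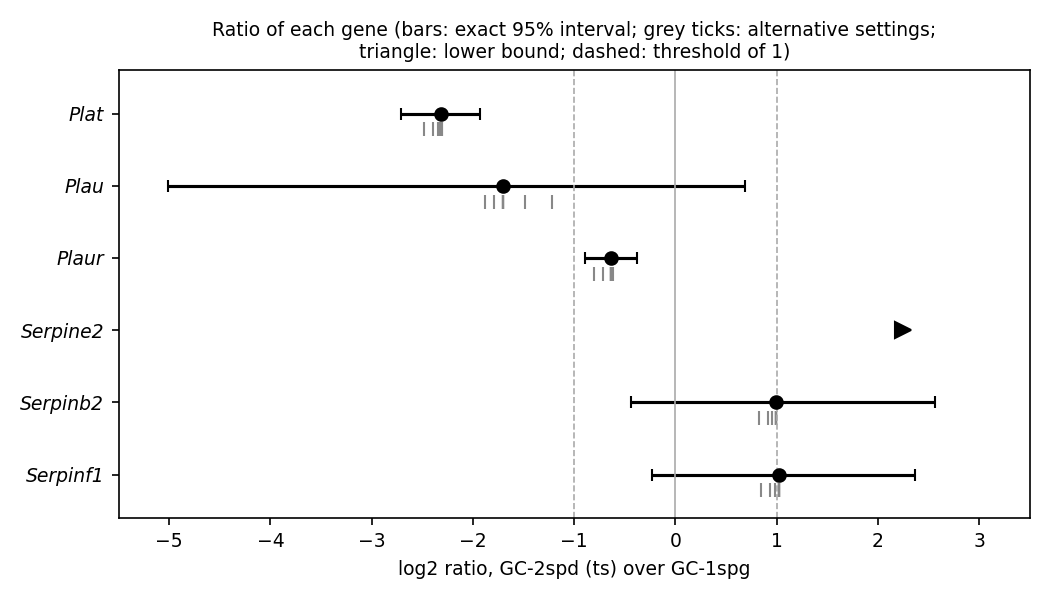
Log2 ratio of GC-2spd (ts) over GC-1spg (x axis) of the 6 genes (y axis), with exact 95% intervals as bars, the values under the alternative settings as grey ticks, and the lower bound of *Serpine2* as a triangle. That bound leaves out the counting error of GC-2spd (ts). *Plat* lies beyond the dashed threshold at -2.31 with its whole interval, and *Plaur* lies within the thresholds at -0.63.

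Over these 2 libraries, the protein-coding genes whose levels lay nearest to those of *Plat* were *Gas1*, with 353 and 64 tags, and *Mpp2*, with 367 and 63 tags, at distances of 0.068 and 0.097 in log2 TPM. Those nearest to *Plaur* were *Ptcd3*, with 335 and 206 tags, and *Gtpbp1*, with 329 and 207 tags, at 0.043 and 0.052. With 2 values per gene, such nearness describes the counts only.

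The other genes of the plasminogen system were read from 6 lists with 47 genes, of which 32 had a listed tag. Among these, the call rule gave 4 as higher in the GC-2spd (ts) library and 4 as lower, beside 11.7% and 7.84% of all genes. The median log2 ratio of the 32 genes was 0.02, against 0.13 over all genes. *Plg* itself, which encodes plasminogen and is made mainly by the liver, had no tag in either library, nor had *Serpinf2*, which encodes the main plasmin inhibitor of plasma. An assumed BCV of 0.4 left 0 genes called higher and 1 called lower.

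*Serpinb6a*, an intracellular serpin listed with the inhibitors, rose from 235 to 1303 tags, with a log2 ratio of 2.57 (2.37 to 2.78). *Serpini1*, which encodes neuroserpin, an inhibitor of the tissue-type activator, had 12 and 29 tags and was not called (Audic-Claverie FDR 0.014).

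Of 5 listed genes for plasminogen, its receptors and plasmin inhibitors, only *S100a10* was called. It encodes the partner of annexin A2 that binds plasminogen and its tissue-type activator, and had 130 tags in GC-1spg against 357 in GC-2spd (ts), with a log2 ratio of 1.56 (1.27 to 1.86), a call that was lost with an assumed BCV of 0.2. *Anxa2*, for annexin A2, had 2248 and 2546 tags, and *Plgrkt*, for a plasminogen receptor, 644 and 590, with ratios of 0.28 and -0.02. *Eno1* had 10 and 5 tags of its own, while sharing tags out among the genes they match gave it 26555 and 10174. It was then called lower, with a log2 ratio of -1.28, so its value is uncertain. Among 12 listed clearance receptors and partners of the urokinase receptor, *Lrp1*, for the receptor that takes up protease and serpin complexes, was called higher with 321 and 1074 tags, with a log2 ratio of 1.84 (1.66 to 2.03). *Lrpap1*, for its chaperone, had 301 and 167 tags and was not called.

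The integrin genes on that list did not share a direction. *Itgb1* was called higher, with 929 and 2194 tags, though not with an assumed BCV of 0.2, and *Itga3* and *Itgb3* lower, with 387 and 92 and with 52 and 0 tags. *Itgav*, *Itgb5* and *Itga5* had log2 ratios of 0.34, 0.95 and 0.41 and were not called. *Egfr*, a gene of that list that is no integrin gene, had a ratio of -0.60 and was not called. With only the last CATG site counted, *Egfr* had 55 and 21 tags, a ratio of -1.29, and was called lower. Of the proteases that activate pro-urokinase, *Ctsb*, with 508 and 657 tags, and *Ctsl*, with 2569 and 1395, were listed and not called. At the last CATG site alone *Ctsb* had 8 and 9 tags, and *Ctsl* had 75 and 16, a ratio of -2.13 that was called lower. Among 7 listed plasmin substrates, *Vegfc* fell from 159 to 34 tags and *Mmp3* from 62 to 6, and *Fn1*, *Tgfb1* and *Lamc1* were not called, with ratios of -0.86, -0.90 and 0.98. *Fn1* and *Tgfb1* were called lower under TMM. With the last CATG site alone *Vegfc* was not listed, and *Lamc1* had 70 and 61 tags, which turned its ratio to -0.10. Of the PEDF receptor genes, *Pnpla2* had 171 and 120 tags and *Lrp6* 146 and 226, and neither was called. With exact matches only, *Lrp6* had 43 and 226 tags, a ratio of 2.50, and was called higher. *Rpsa* had 61 and 31 tags of its own and was not called. It had 700 and 1386 with shared tags, which turned its direction from lower to higher, and was then called higher, with a ratio of 1.09.

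**Figure D4:**
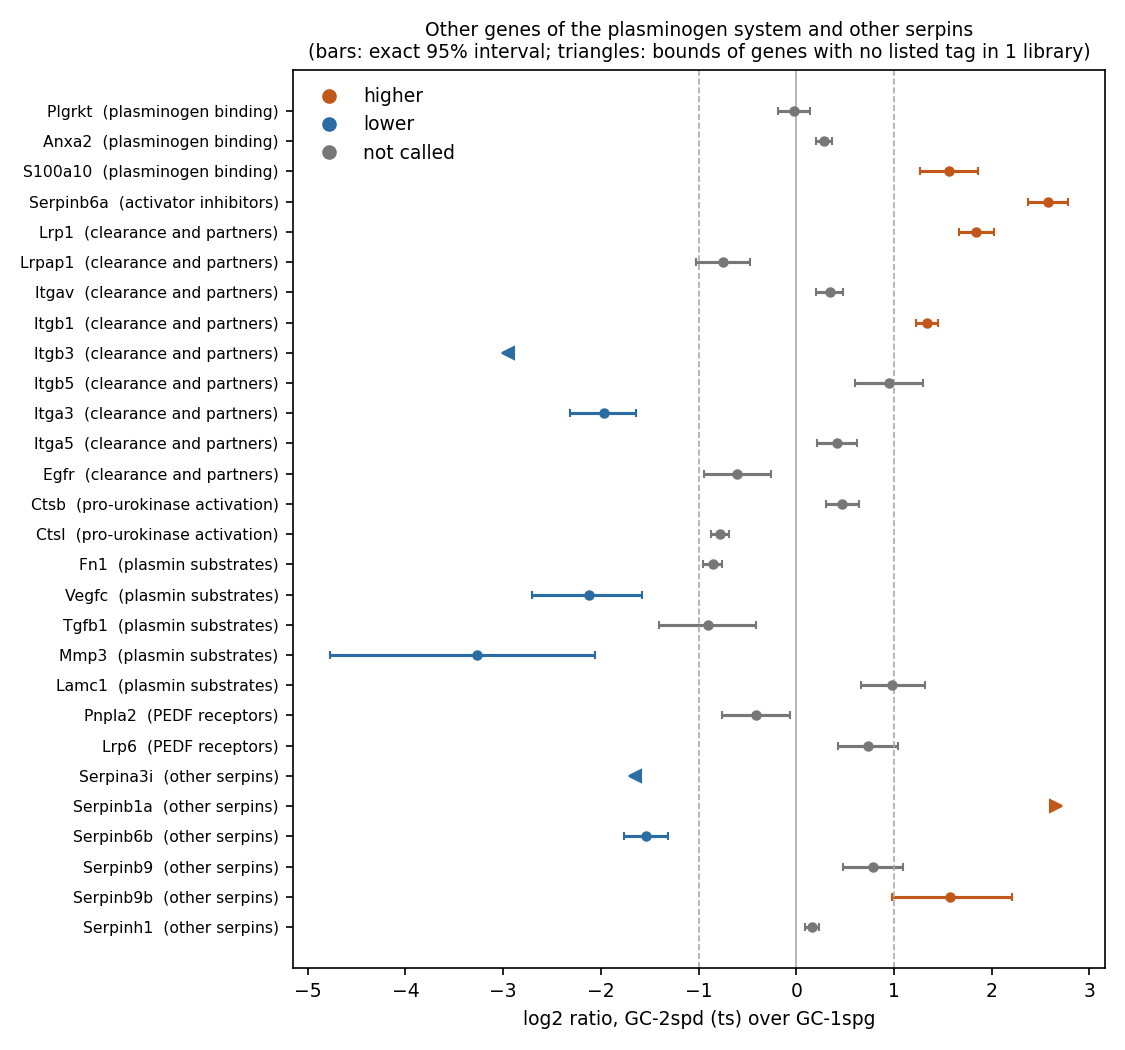
Log2 ratio of GC-2spd (ts) over GC-1spg (x axis) of the other genes of the system and the other serpins that were called or had at least 100 tags over both libraries (y axis), with exact 95% intervals as bars and bounds as triangles, in orange where called higher, blue where called lower and grey where not called. The bounds leave out the counting error of the library that had tags. Among the genes listed in both libraries, *Serpinb6a* stands furthest to the right at 2.57, and *Mmp3* furthest to the left at -3.27.

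Serpin genes as a family were mostly not listed. Of 60 protein-coding serpin genes, 16 had a tag, 4 were called higher and 2 lower, beside 11.7% and 7.84% of all genes, and *Serpine2* was the only 1 of the 3 serpins examined here among them. Called higher were also *Serpinb6a*, *Serpinb1a*, with 0 and 28 tags, and *Serpinb9b*, with 32 and 89, which had 2 and 5 at its last CATG site and was not called there. Called lower were *Serpinb6b*, with 690 and 222 tags, with a log2 ratio of -1.53 (-1.76 to -1.31), and *Serpina3i*, with 16 and 0 tags, which was not listed when only exact matches or only the last CATG site were taken. With an assumed BCV of 0.2, *Serpinb9b*, *Serpinb6b* and *Serpina3i* were not called. With tags shared out among the genes they match, *Serpina3g*, *Serpina3i* and *Serpina3n* had 86, 94 and 78 tags in GC-1spg. All had 0 in GC-2spd (ts) and were called lower. *Serpinb1a* then had 2 and 61 tags and *Serpinb1b* 2 and 33, and both were called higher. *Serpinb6a* and *Serpinb6b* are close copies, and only tags of 1 of them were counted for each. *Serpinb9* had 147 and 236 tags and was not called. *Serpinh1*, which encodes the collagen chaperone Hsp47, was the most abundant of these 60 serpins in GC-1spg with 3066 tags, and had 3204 in GC-2spd (ts), with a log2 ratio of 0.17 that was no longer above 0 under TMM.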

How the data were processed

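Per the labels and the methods, tags were cut out with *Nla*III and *Mme*I, and those made of adaptor, of poor quality or seen once were discarded. The authors deposited for each tag its raw count and its TPM, the count per 1000000 clean tags of the library. The sources used here give no program for the tag matching of the study. Their UniGene clusters were not used. The tags were matched to the CATG+17 tags of 141767 GENCODE M21 transcripts (GRCm38), both strands, with at most 1 mismatch and exact matches first. Sense tags of 1 gene were summed and divided by all clean tags. Audic-Claverie p-values, two-sided, were adjusted by Benjamini-Hochberg over 14450 genes, and a call needed an FDR of 0.001 or less with a log2 ratio of 1 or more in size. edgeR's quasi-likelihood test could not be fitted, because 1 library per line leaves no residual degrees of freedom. Intervals are exact at 95% and cover counting error only, since PCR copies cannot be separated and unlisted single copies are not in the counts.

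The genes, lists and tests were chosen with earlier results of these data known. A gene of the lists is not reported here and was left out of the list and serpin counts. Named were the 6 genes, every list or serpin gene that was called or had at least 100 tags over both libraries, and the 2 nearest genes of each of the 6 with at least 100 tags. *Plg*, *Serpinf2*, *Serpini1*, *Eno1*, *Rpsa*, *Serpina3g*, *Serpina3n* and *Serpinb1b* were named outside this rule after their values were seen, as were single marker genes. On simulated data, with 200 genes changed 4-fold and counting noise only, the test run over 14280 genes recovered 97.6% of the 123 changed genes with at least 50 tags and called 0 unchanged genes. Counting noise is what the test assumes, so this result says nothing about differences between cultures. With a BCV of 0.2 the test called 209 unchanged genes. *Plau*, *Serpine2*, *Serpinb2* and *Serpinf1*, with 9, 21, 20 and 26 tags over both libraries, lie below 50 tags and outside this recovery. The statistics were run in Python 3.11.15 (scipy 1.17.1, numpy 2.4.6, pandas 2.3.3), the plots in matplotlib 3.10.9, and edgeR 4.0.16 in R 4.3.3.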

Additional observations from a re-analysis of the deposited data

Results flagged for a closer look

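Antisense tags that match 1 gene only, which are outside the sense counts above, were listed for *Plaur* and *Serpine2* above 3 copies. *Plaur* had 27 such antisense copies in GC-1spg against 19 in GC-2spd (ts), beside 333 and 200 sense tags. Of these, 24 and 17 came from the tag CATGgaaaaactgaggtccaa, which starts at the same CATG as the sense tag of the second site. *Serpine2* had 0 such antisense copies in GC-1spg against 26 in GC-2spd (ts), beside 21 sense tags, all from the tag CATGcagtatataaaacaaca at the same CATG as its sense tag. Antisense tags that also match other genes had a further 45 and 33 copies for *Plaur*, 41 and 33 of them at the CATG of its last site, 21 and 48 for *Serpine2*, and 33 and 2 for *Plat*. Over all genes, antisense copies of tags that match 1 gene only amounted to 13.9% of the sense copies in GC-1spg against 12.2% in GC-2spd (ts). Of the 8811 genes with at least 20 sense tags in GC-2spd (ts), 154, or 1.75%, had more antisense than sense copies, *Serpine2* among them. What gives these tags was not tested.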

How the results depend on the processing

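Under the 12 alternatives, no log2 ratio of the 6 genes changed direction, and *Plaur*, *Plau*, *Serpinb2* and *Serpinf1* were not called under any that gave a value. *Plat* (-2.31) and *Serpine2* (8.80, with 0.01 TPM put for the library at 0, and 5.53 with 0.5 tags added) lost their calls with an assumed BCV of 0.4, which left 0 of the 6 genes called, 1 list gene in place of 8 and 0 serpins in place of 6. A BCV of 0.2 left 6 list genes and 3 serpins called. Sharing tags out among the genes they match gave 10 list genes and 9 serpins called. The CATG site nearest the 3′ end alone left 1 of the 6 genes and 3 serpins called: *Serpine2* and *Serpina3i* then had no tag, and *Serpinb9b* was not called. With a minimum of 10 tags *Plau* was not tested. A single library gives no estimate of the BCV, and 1 copy of 0.197 to 0.212 TPM limits the rare genes. No paired analysis was possible because each line has 1 library.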
